A study of Mus musculus with 1617 samples.

Results

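The comparison was between microglia of the adult mouse hippocampus and microglia of the hippocampus at postnatal day 14 (P14), as single-cell transcriptomes. Its members were the cells labelled adult or P14 hippocampus in the deposited table of 1617 cells: 66 adult cells, and P14 cells in title runs (unbroken stretches of the cell numbers in the titles, whose meaning is not given) of 57, 38 and 23. Cells with Calb1 at 100000 TPM or more were left out (15 adult, 12 P14), as were cells with fewer than 1000 genes at 1 TPM or more (3 adult, 2 P14, of which 1 at each age had both). This kept 49 of 66 adult cells, 7, 13 and 29 in 3 title runs, and 88.98% of the P14 cells, 52, 34 and 19 in 3 title runs. The share kept was 30.4%, 92.9% and 100% in the adult runs and 91.2%, 89.5% and 82.6% in the P14 runs. Of the 15 adult cells with high Calb1, 14 were in adult run 1, so values of that run rest on the few cells kept. TPM is a transcript level scaled by gene length, with every cell set to the same total.

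The series sorted brain macrophages of mice by surface markers (CD45, F4/80 and CD11b positive, Ly6C negative) and made 1 library per cell on Fluidigm C1 chips. The adult group is labelled only as adult, with no age in weeks, and no strain, sex, allele or treatment is given in the sources used here for either group. Neither group is marked as paired-end, as some other cells of the series are. No animal, litter or preparation is named, so each age is 1 sample: differences are given as descriptions with no p-value, and intervals on shares of cells cover counting error over cells only.

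Microglia are the resident macrophages of the brain, seeded from the yolk sac before birth and kept by self-renewal. They depend on signalling through the receptor Csf1r and on transforming growth factor beta, and their identity rests on transcription factors such as Spi1 (PU.1) and Sall1. In the second postnatal week they engulf synapses and dying cells in the growing hippocampus, with complement among the signals used; in the adult they survey the tissue with ramified processes.

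A gene was called higher or lower where the ratio of mean TPM (pseudocount 1 TPM) and the difference in mean log2(TPM + 1) both passed 1.5-fold. This limits calls that rest on a few very high cells but does not prevent them. Ank, called higher, was at 100 TPM or more in 10.2% of adult cells. Ratios are adult over P14 on the log2 scale and understate differences of low genes. Of 11474 genes with a mean of 5 TPM or more at either age, the genes counted as measured below, 341 (2.97%) were called higher and 2061 (18%) lower in the adult. The median ratio over all these genes was -0.33 and the median difference in mean log2 was -0.27. Each list median below is given on both scales and read beside these shifts. Counts of calls in each list are likewise read beside the all-gene shares of 2.97% higher and 18% lower. The balance of calls depended on scaling and cells: after median-ratio rescaling 899 genes were higher and 1037 lower, in cells matched in genes per cell 1514 and 2098 of 10606 tested, and without adult title run 3 the higher genes came to 952. The last 2 settings kept only 18 and 20 adult cells, and means of fewer cells vary more. Genes described below include Crybb1, Gpr165, Apoe, Fth1 and Csf1r, lower in adult cells, and Lyz2, Upk1b, Cd9, Aif1 and Tmx4, higher; they were taken from the lists or for being widely seen, and the largest ratios are given after the lists.

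Adult cells held fewer genes than P14 cells: a mean of 3234.4 ± 909 genes in adult and 4177 ± 794.5 genes in P14 cells (SD over 49 adult cells and the kept P14 cells). Adult title runs averaged 4389, 3468 and 2851.2 genes and P14 runs 3922, 4602 and 4114. The cells just inside the limit on genes had 1.16, 1.33 and 1.58 times the minimum, and those just outside 0.887, 0.758 and 0.559 of it. The highest Calb1 level kept was 0.500 of its limit and the lowest left out was 2.02 times it. Mitochondrial transcripts took a median of 1.75% of TPM in adult and 2.49% in P14 cells, and Malat1, a nuclear non-coding RNA, had 42676 TPM in adult and 22503 TPM in P14 cells. The part of genes per cell, mitochondrial share and nuclear RNA in the differences below was not tested. A subset matched in genes per cell, 18 adult and 49 P14 cells with medians of 3678.5 genes in adult and 3857 genes in P14 cells, is given beside results; matching also changed the mix of title runs, to 5, 5 and 8 adult and 31, 8 and 10 P14 cells. Of the 341 higher genes 77.7%, and of the 2061 lower genes 56.8%, were also called there.

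**Figure D1:**
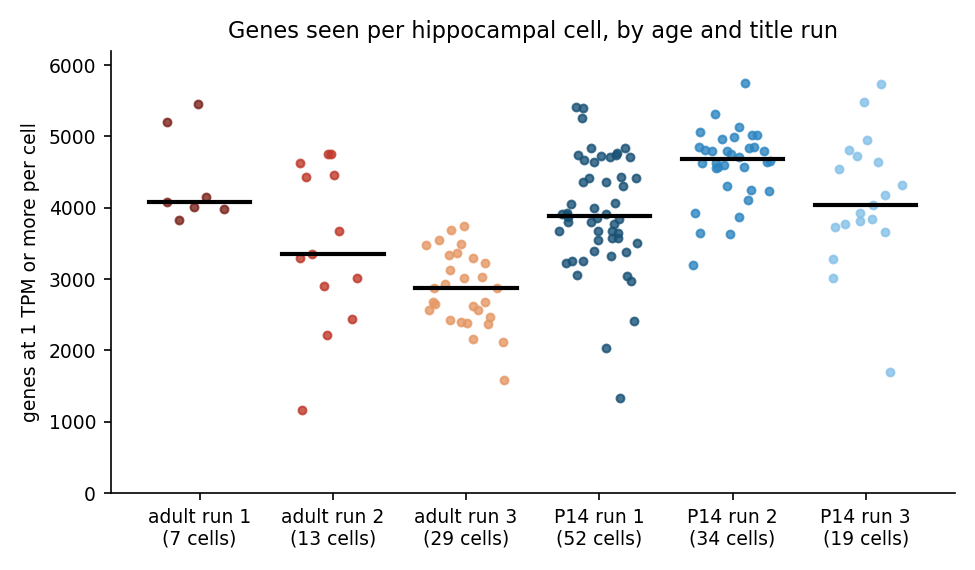
Genes at 1 TPM or more per cell (vertical axis) for each title run, adult runs left and P14 runs right; points are cells and bars are medians. The medians of adult runs 1 and 2 are 4084 and 3356, that of adult run 3 is the lowest of all, and those of P14 runs are 3883, 4683.5 and 4034.

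Among 18 genes of microglial stages, 2 were called lower and 4 higher in the adult (background 18% lower and 2.97% higher; list median 0.30, -0.35 on mean log2). Crybb1, a crystallin gene of chromosome 5, 112255815 to 112269585, plus strand in GRCm38, had a mean of 31.4 TPM (median 0, highest cell 949) in adult and 473 TPM (median 205.5, highest 2750.4) in P14 cells. It was at 1 TPM or more in 18 of 49 adult cells (36.7%, 95% interval 23.4% to 51.7%) and 94.3% of P14 cells (95% interval 87.98% to 97.9%). Most adult cells were at 0 and nearly all P14 cells were not, though the ranges overlap. Its log2 ratio was -3.87, and -5.21 in cells matched in genes. Title-run means were 20.7, 2.70 and 46.8 TPM in adult and 418, 451 and 661 TPM in P14 cells, so the runs do not overlap; 1 adult cell held 61.8% of the adult total.

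Gpr165, an orphan G-protein coupled receptor of chromosome X, 96713441 to 96719388, plus strand, averaged 9.68 TPM in adult and 196.3 TPM in P14 cells. It reached 1 TPM in 4 of 49 adult cells (8.16%, 95% interval 2.27% to 19.6%) and 64.8% of P14 cells (95% interval 54.8% to 73.8%). Its ratio was -4.21, and -7.00 in matched cells, where 1 of 18 adult and 36 of 49 P14 cells had it. A single adult cell held 90.9% of the adult total, and the runs averaged 61.6, 0.922 and 1.06 TPM in adult and 236.1, 189.6 and 99.3 TPM in P14 cells.

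Promoters of 4 of these 6 called stage genes are in the RefSeq table (GRCm38.p6). The 250 bases before the start in that table are printed for Crybb1 and Gpr165, lower in the adult, and for Lyz2, which was higher. The gene starts given above are from GENCODE and lie inside the windows of Crybb1 and Gpr165, near their ends. Capitals mark TGCTGA, a MAF core motif (reverse TCAGCA, both strands searched), found in 16.1% of 32851 promoters of this length, and GGAAGT, an ETS core (reverse ACTTCC), found in 19.7%. A match describes letters, not a bound site. Crybb1 is on the plus strand at chr5:112255570-112255819, Gpr165 on the plus strand at chrX:96713218-96713467 and Lyz2 on the minus strand at chr10:117282273-117282522.
Crybb1: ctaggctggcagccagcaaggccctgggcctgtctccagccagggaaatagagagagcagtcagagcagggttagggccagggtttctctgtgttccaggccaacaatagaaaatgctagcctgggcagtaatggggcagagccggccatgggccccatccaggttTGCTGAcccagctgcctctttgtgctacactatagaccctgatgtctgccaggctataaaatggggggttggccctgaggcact
Gpr165: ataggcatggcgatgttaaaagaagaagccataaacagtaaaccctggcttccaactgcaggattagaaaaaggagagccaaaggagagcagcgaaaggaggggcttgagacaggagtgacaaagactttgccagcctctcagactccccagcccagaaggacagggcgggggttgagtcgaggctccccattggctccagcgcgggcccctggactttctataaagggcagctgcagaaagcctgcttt
Lyz2: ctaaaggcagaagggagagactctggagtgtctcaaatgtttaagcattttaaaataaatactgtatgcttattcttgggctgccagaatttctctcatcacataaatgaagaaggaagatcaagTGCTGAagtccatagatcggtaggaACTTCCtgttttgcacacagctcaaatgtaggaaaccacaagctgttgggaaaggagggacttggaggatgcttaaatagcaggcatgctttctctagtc
Crybb1 holds 1 TGCTGA, Lyz2 holds 1 TGCTGA and 1 ACTTCC, and Gpr165 holds neither in this window. The fourth gene matched, Runx1, which was higher, has 2 promoters in the table; both hold neither motif and are not printed.

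Lyz2, the lysozyme gene of macrophages, averaged 385 TPM in adult and 88.9 TPM in P14 cells (ratio 2.10; 2.33 in matched cells). It reached 1 TPM in 34 of 49 adult cells (69.4%, 95% interval 54.6% to 81.7%) and 23.8% of P14 cells (95% interval 16.04% to 33.1%). Run means were 193.5, 234.03 and 498 TPM in adult and 83.7, 146.3 and 0.348 TPM in P14 cells, all adult runs above all P14 runs. Upk1b, a tetraspanin known as a uroplakin of the bladder lining, averaged 512 TPM in adult and 11.5 TPM in P14 cells. It was seen in 19 of 49 adult cells (38.8%, 95% interval 25.2% to 53.8%) and 12.4% of P14 cells (95% interval 6.76% to 20.2%), and 1 adult cell at 17695 TPM held 70.6% of the adult total. Its ratio was 5.36, and 5.22 without the 2 highest cells of each age.

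Runx1, a factor of myeloid development, had 157.3 TPM in adult and 46.5 TPM in P14 cells, with adult run means of 532, 14.3 and 130.95 TPM; its ratio was 1.74, and 1.01 without adult run 1. It stayed called higher in matched cells (3.53).

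**Figure D2:**
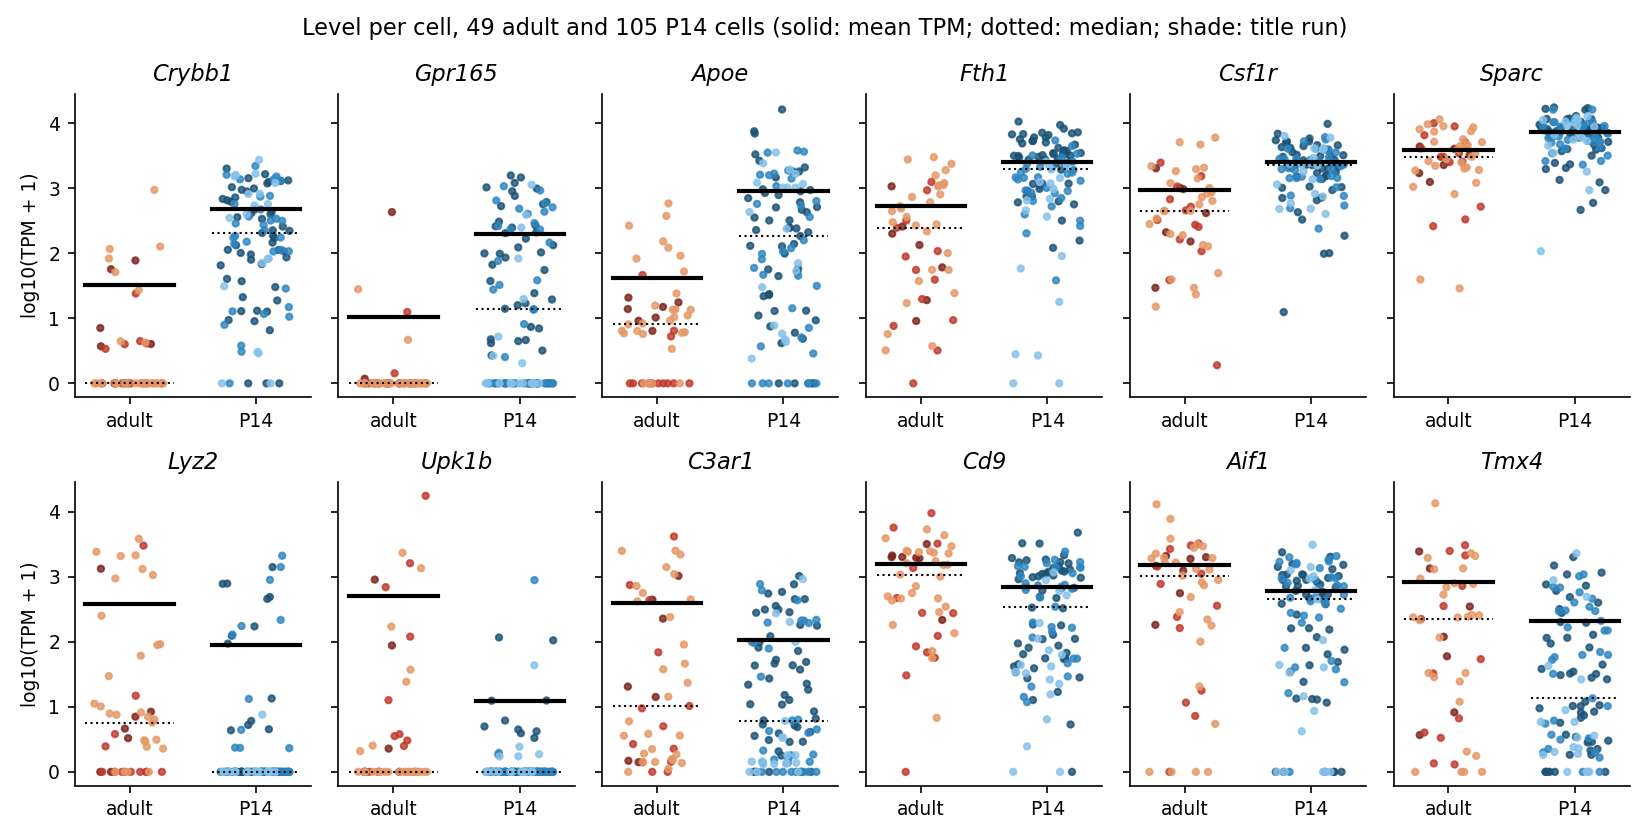
Level per cell as log10(TPM + 1) for 12 genes, with adult cells left and P14 cells right in each panel; solid bars are means of TPM, dotted bars medians and shades title runs. Crybb1 and Gpr165 have most adult cells at 0, while Sparc and Csf1r are seen in nearly every cell at both ages.

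Of 18 homeostatic microglial genes 6 were called lower and none higher in the adult (list median -0.051, -0.95 on mean log2). Over all measured genes 18% were lower and 2.97% higher. Among genes with a mean of 50 TPM or more the shares were 26.7% lower and 5.45% higher. Csf1r, the receptor for the survival factors Csf1 and Il34, ranged from 0.900 to 6045 TPM (median 450.2) in adult and from 11.5 to 9835 TPM (median 2273) in P14 cells. It averaged 956 TPM in adult and 2547.1 TPM in P14 cells (ratio -1.41; -1.48 in matched cells), and adult run means, 690.9, 609.9 and 1174.8 TPM, were all below the P14 ones, 2707.2, 2402.1 and 2367.96 TPM. Sparc, a secreted matrix protein, had 3952 TPM in adult and 7329.5 TPM in P14 cells (-0.89), with median levels of 3065.9 TPM in adult and 7079.6 TPM in P14 cells and adult runs again below P14 runs.

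Sall1, a transcription factor specific to microglia among macrophages, had 203.95 TPM in adult and 335 TPM in P14 cells (-0.71). P2ry13, a receptor for ADP, had 1407.6 TPM in adult and 2165 TPM in P14 cells (-0.62), and Slc2a5, a fructose transporter, had 240.1 TPM in adult and 606.1 TPM in P14 cells (-1.33); the runs of both overlapped. Other defining markers were not called: P2ry12, the ADP receptor of ramified microglia, had 8390.3 TPM in adult and 10624 TPM in P14 cells, Tmem119 had 1125 TPM in adult and 1092 TPM in P14 cells, and the fractalkine receptor Cx3cr1 had 3887 TPM in adult and 4194 TPM in P14 cells. Cst3, a cysteine protease inhibitor, had 23116 TPM in adult and 16488 TPM in P14 cells. All 18 genes passed the level filter.

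Of 22 lysosome and phagocytosis genes, 8 were called lower and none higher (median -0.18, -1.41 on mean log2). Lgmn, the asparaginyl endopeptidase legumain, had 2917.1 TPM in adult and 5897 TPM in P14 cells (-1.02), and Grn, which encodes progranulin, had 1036 TPM in adult and 1973 TPM in P14 cells (-0.93). Ctsz, a cathepsin, had 782.9 TPM in adult and 1400.9 TPM in P14 cells, and Psap, the precursor of the saposins that aid glycolipid breakdown, had 81.9 TPM in adult and 225.4 TPM in P14 cells; neither stayed called in the matched cells. Hexa, Asah1 and Npc2 were also lower. Ctsd and Ctsb, major lysosomal proteases, were not called: Ctsd had 6478 TPM in adult and 7016 TPM in P14 cells and Ctsb 1422.2 TPM in adult and 1405.5 TPM in P14 cells.

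Genes of the disease-associated microglia programme were mixed: 3 of 16 measured genes were called higher and 4 lower, with a median of 0.32, -0.34 on mean log2. Apoe, the lipid carrier, averaged 41.2 TPM (median 7.09, highest 585.02) in adult and 897 TPM (median 183.99, highest 16384) in P14 cells, a ratio of -4.41 and -4.22 in matched cells. Adult runs averaged 12.3, 4.24 and 64.7 TPM and P14 runs 1058, 683 and 839.1 TPM. With the cells left out by the limits put back, the ratio of Apoe was -1.82, and without adult run 3 it was -6.80. Cells with Apoe at 1 TPM or more were 71.4% of adult and 89.5% of P14 cells.

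Fth1, the ferritin heavy chain that stores iron, had 538 TPM in adult and 2518.1 TPM in P14 cells (-2.22). Its adult run means, 250.4, 237.1 and 742.99 TPM, were below the P14 ones, 3669.8, 1686 and 856 TPM; the highest P14 run was run 1. Ftl1, the ferritin light chain, had 2334.4 TPM in adult and 6291.9 TPM in P14 cells (-1.43), with overlapping runs. Lpl, lipoprotein lipase, was low at both ages (24.7 TPM in adult and 94.9 TPM in P14 cells; -1.90) and was not called in matched cells. Higher in the adult were Cd9, a tetraspanin (1606 TPM in adult and 693.01 TPM in P14 cells; 1.21), and Ccl6, a chemokine (697.1 TPM in adult and 262.6 TPM in P14 cells). Ank, a pyrophosphate transporter, was seen in 18.4% of adult and 6.67% of P14 cells.

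Other genes of that programme were near 0: Itgax, which encodes CD11c, was listed at 0 in all adult cells, Spp1 averaged 0.0596 TPM in adult cells and was at 0 in all P14 cells, and Cst7 was seen in 2.04% of adult and 2.86% of P14 cells. Trem2, the lipid-sensing receptor, had 1071 TPM in adult and 1066 TPM in P14 cells, and its signalling partner Tyrobp had 3846 TPM in adult and 2851.97 TPM in P14 cells; neither was called.

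Of 15 measured genes of cholesterol and lipid handling 5 were called lower and none higher (median -0.76, -0.48 on mean log2): Apoe and Lpl, Abca1, a cholesterol exporter (58.05 TPM in adult and 98.7 TPM in P14 cells), Npc1, a lysosomal cholesterol transporter (35.1 TPM in adult and 92.8 TPM in P14 cells), and Insig1, a brake on cholesterol synthesis (16.97 TPM in adult and 68.2 TPM in P14 cells). The regulators Nr1h3, Pparg and Ch25h were listed at 0 in all cells of both ages. P2ry6, a receptor for UDP that drives phagocytosis, stood at 164.2 TPM in adult and 398 TPM in P14 cells (-1.27), 1 of 4 purinergic and ion channel genes called lower of 14 measured (median -0.061, -0.86 on mean log2), with none higher. The others were P2ry13 and the potassium channel genes Kcnk13, not called in matched cells, and Kcnk6.

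**Figure D3:**
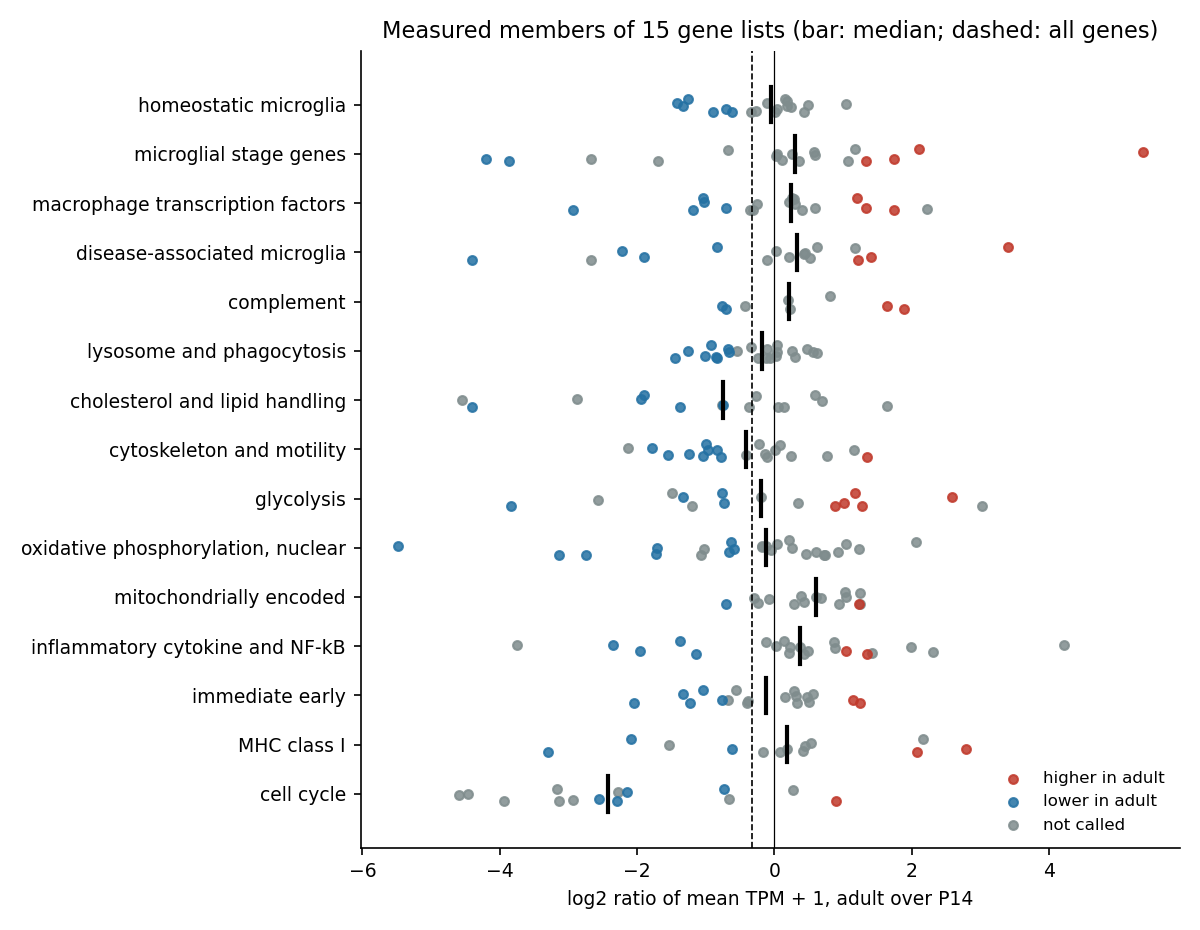
Log2 ratio of mean TPM + 1, adult over P14 (horizontal axis), for measured members of 15 gene lists; points are genes, colours the call and bars the list medians. The dashed line is the median over all genes, -0.33. The lists of homeostatic, lysosomal, lipid and nuclear oxidative phosphorylation genes hold genes called lower and none called higher, where 2.97% of all measured genes were higher.

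Complement genes differed in both directions, 2 of 8 higher and 2 lower (median 0.21, -0.15 on mean log2). The anaphylatoxin receptors were higher: C3ar1 had 400.1 TPM in adult and 107.3 TPM in P14 cells (1.89; 2.56 in matched cells; runs apart) and C5ar1 had 133.5 TPM in adult and 42.3 TPM in P14 cells (1.63; runs overlapping). C1qa, a chain of the initiating C1q complex, had 589.7 TPM in adult and 960.3 TPM in P14 cells (-0.70; not called in matched cells), while its partner C1qb had 6284 TPM in adult and 5355 TPM in P14 cells and C1qc 758.6 TPM in adult and 1019.9 TPM in P14 cells, neither called. Itgam, the CD11b chain of complement receptor 3 and a marker of the sort, had 329.6 TPM in adult and 562.9 TPM in P14 cells (-0.77).

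Among 18 measured macrophage transcription factors 3 were higher and 5 lower (median 0.23, -0.69 on mean log2). Elk3, an ETS factor, had 11.9 TPM in adult and 98.1 TPM in P14 cells (-2.94; 22.4% of adult and 60.95% of P14 cells), with the runs apart. Spi1 had 35.995 TPM in adult and 82.9 TPM in P14 cells (-1.18) with overlapping runs, and was not called in matched cells; Cebpb, also not called in matched cells, and Bhlhe41 were lower with overlapping runs. For Bhlhe41 1 cell held 64.1% of the adult total, and its ratio turned to 0.095 without mitochondrial genes. Cebpa, a myeloid factor, had 61.7 TPM in adult and 26.2 TPM in P14 cells (1.205). In the signalling of transforming growth factor beta, 2 of 12 measured genes were higher, Tgfbr2 (207.6 TPM in adult and 107.5 TPM in P14 cells) and Smad3 (132.7 TPM in adult and 36.5 TPM in P14 cells), and 2 lower, Tgif1 and Nrros, of which Nrros anchors the latent ligand on microglia; Tgif1 and Nrros had ratios of 1.14 and 0.062 in matched cells, against -0.76 and -1.41 overall (list median -0.10, -0.31 on mean log2). Among 9 genes of Csf1 receptor and growth factor signalling, Csf1r and Pik3ap1 were lower and Pdgfb was higher (median 0.060, -0.40 on mean log2).

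The chemokine genes Ccl3 (1066 TPM in adult and 417 TPM in P14 cells; 1.35) and Ccl4 (2641.9 TPM in adult and 1283 TPM in P14 cells; 1.04) were the 2 called higher of 21 cytokine and NF-kB genes, and 4 were lower, Nfkbia, Rel, Relb and Cd83 (median 0.37, -0.24 on mean log2). Nfkbia, the NF-kB inhibitor, had 213.6 TPM in adult and 471 TPM in P14 cells, and Cd83, an activation marker, had 39.6 TPM in adult and 207.01 TPM in P14 cells; the runs overlapped for all 4, and Rel turned to 0.19 without P14 run 1. The cytokine Il1b was listed at 0 in all adult cells and was in 0.952% of P14 cells. Of 18 immediate early genes, Fosb (211.9 TPM in adult and 88.4 TPM in P14 cells) and Ier5 (141.9 TPM in adult and 63.4 TPM in P14 cells) were higher, and Junb (54.1 TPM in adult and 227.3 TPM in P14 cells), Zfp36, an mRNA decay factor (905 TPM in adult and 2131 TPM in P14 cells), Egr2, Ier2 and Ier3 were lower (median -0.12, -0.29 on mean log2); Fos had 2958.1 TPM in adult and 3888 TPM in P14 cells.

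Of 18 heat shock genes 2 were lower, Ddit3 and Calr, with none higher (median -0.049, -0.40 on mean log2), and of 10 glucocorticoid-response genes 2, Tsc22d3 and Cdkn1a, with none higher (median 0.32, -0.49 on mean log2). Of 8 measured interferon-response genes 3 were lower, Irf1 and Irf9 among them, with none higher (median 0.11, -0.33 on mean log2). None of the 5 measured MHC class II genes was called (median -0.083, -0.29 on mean log2). Of 13 class I genes H2-Q4 and H2-M3 were higher, and the peptide-loading genes Tap1, Tapbp and Psmb8 lower (median 0.18, 0.016 on mean log2); Psmb8 was not called in matched cells. H2-Q4 had a ratio of 2.08, -1.17 in matched cells and -1.07 without adult run 3, and is one of several near-identical class I genes whose reads may be split. Of 22 pattern and phagocytic receptors, Tlr3, Clec4a2 and Itgam were lower and none was higher (median 0.19, -0.47 on mean log2). Over all measured genes 18% were lower and 2.97% higher. The heat shock, glucocorticoid and pattern receptor counts are near or below those shares.

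Glycolysis genes were mixed, 5 of 15 higher and 4 lower (median -0.19, -0.10 on mean log2). Hk2, the hexokinase of the first step, had 1957 TPM in adult and 807 TPM in P14 cells (1.28), and Gapdh had 594.5 TPM in adult and 262.8 TPM in P14 cells (1.17); Tpi1, Pgk1 and Eno1 were also higher, and Pgk1 was not called in matched cells. Pgam1, the phosphoglycerate mutase, had 3.24 TPM in adult and 59.3 TPM in P14 cells (-3.83), and Pkm and Ldha, of the last steps, were lower. Of 25 nuclear genes of oxidative phosphorylation, 8 were lower and none higher (median -0.13, -0.49 on mean log2). Of 15 mitochondrially encoded genes mt-Atp6 was higher (8571 TPM in adult and 3653 TPM in P14 cells) and mt-Nd5 lower (median 0.61, -0.37 on mean log2); mt-Atp6 turned to -0.39 in matched cells.

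Of 19 cytoskeleton genes 8 were lower and 1, Aif1, higher (median -0.42, -1.16 on mean log2). Aif1, the actin-bundling protein Iba1 used to stain microglia, had 1534 TPM in adult and 601.6 TPM in P14 cells (1.35), with adult runs 1355, 1011 and 1812 TPM above P14 runs 560.1, 733.8 and 479 TPM. Actb and Actg1, the cytoplasmic actins, had 7083 TPM in adult and 12188 TPM in P14 cells and 1276 TPM in adult and 3039.4 TPM in P14 cells. Ribosomal protein genes were lower in 31 of 81 cases and higher in none (median -0.34, -2.05 on mean log2, beside -0.33 and -0.27 over all genes).

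Of 14 measured cell cycle genes Tyms was higher, and Top2a, Mcm3, Pcna and Stmn1 were lower (median -2.42, -0.38 on mean log2). With no filter on level the median ratio over all 28 listed genes was -0.70, and over the 3 with a mean of 50 TPM or more it was -0.73. Top2a, a topoisomerase of dividing cells, had 4.19 TPM in adult and 24.3 TPM in P14 cells, and 1 P14 cell held 74.8% of its P14 total. Pcna, the replication clamp, had 229.7 TPM in adult and 381 TPM in P14 cells. The runs overlapped for all 5 genes. Of 3 measured sex-linked genes none was called (median -0.44, -0.52 on mean log2).

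Genes both called and with title runs that did not overlap were 0.915% of measured genes on the higher side and 919 (8.01%) on the lower side. Of the 15 genes with the largest positive ratios among those well seen, ratios ran from 2.10 to 5.36. Slamf9, an immune receptor of the SLAM family, had 373 TPM in adult and 40.02 TPM in P14 cells (30.6% of adult and 15.2% of P14 cells), and adult run 2, at 1186.7 TPM, carried most of it. Park2, the parkin ubiquitin ligase, had 138.1 TPM in adult and 15.2 TPM in P14 cells and was in 81.6% of adult and 65.7% of P14 cells. Ptk2b, a kinase of adhesion signalling, had 110.8 TPM in adult and 17.3 TPM in P14 cells, and Mavs, the adaptor of cytosolic RNA sensing, had 198.2 TPM in adult and 29.4 TPM in P14 cells. The others were Upk1b, Dpy19l3, Csmd3, Snw1, Prorsd1, Tubgcp4, Aste1, Abcd2, Ppp1r12a, Pag1 and Lyz2; Aste1 and Abcd2 were not called in matched cells, where Abcd2 turned to -2.12.

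Of the 15 with the largest negative ratios (-7.18 to -5.42), all were seen in at most 14.3% of adult cells and in 25.7% to 54.3% of P14 cells. Ciart, a repressor of the circadian clock, had 0.194 TPM in adult and 172.4 TPM in P14 cells (4.08% of adult and 30.5% of P14 cells), and Ebi3, a cytokine subunit, had 0.231 TPM in adult and 125.3 TPM in P14 cells. Tlr6, a receptor for bacterial lipopeptides, had 0.800 TPM in adult and 76.2 TPM in P14 cells. Stoml1 was listed at 0 in all adult cells and averaged 81.8 TPM in P14 cells, so no ratio is read from it. The others were Ddrgk1, Exosc10, Srp54a, Prpf31, Mroh1, Nudt16l1, Smim14, Trappc2, Iars, Hist2h2aa1 and Cox5a.

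In genes at 1 TPM or more in at least 75% of cells of both ages, a subset chosen after seeing the data, 34 of 502 (6.77%) were higher and 79 (15.7%) lower, and the median ratio was 0.053, but the median difference in mean log2 was -0.62. Tmx4, a redox protein of the endoplasmic reticulum, had 846 TPM in adult and 206.3 TPM in P14 cells (2.03; run means 621, 701.3 and 966 TPM in adult and 204.6, 212.6 and 199.6 TPM in P14 cells). Unc93b1, the chaperone of endosomal Toll-like receptors, had 268.6 TPM in adult and 1166.2 TPM in P14 cells (-2.11), and 1 of the P14 cells reached 44077 TPM. Serpine2, a protease inhibitor, had 286.4 TPM in adult and 1043 TPM in P14 cells (-1.86), and Tmem59, a regulator of Golgi glycosylation, had 241.6 TPM in adult and 853 TPM in P14 cells (-1.81). In the matched cells 31 of these 34 higher and 49 of these 79 lower genes were also called. The matched cells are a subset of the same cells, so these counts are not an independent check. On their own they called more of the widely seen genes than the main comparison did, both higher and lower. They are also fewer, 18 adult and 49 P14 cells, and means of fewer cells vary more. The part of this in the counts was not tested, so the rise is not read as a larger age difference.

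**Figure D4:**
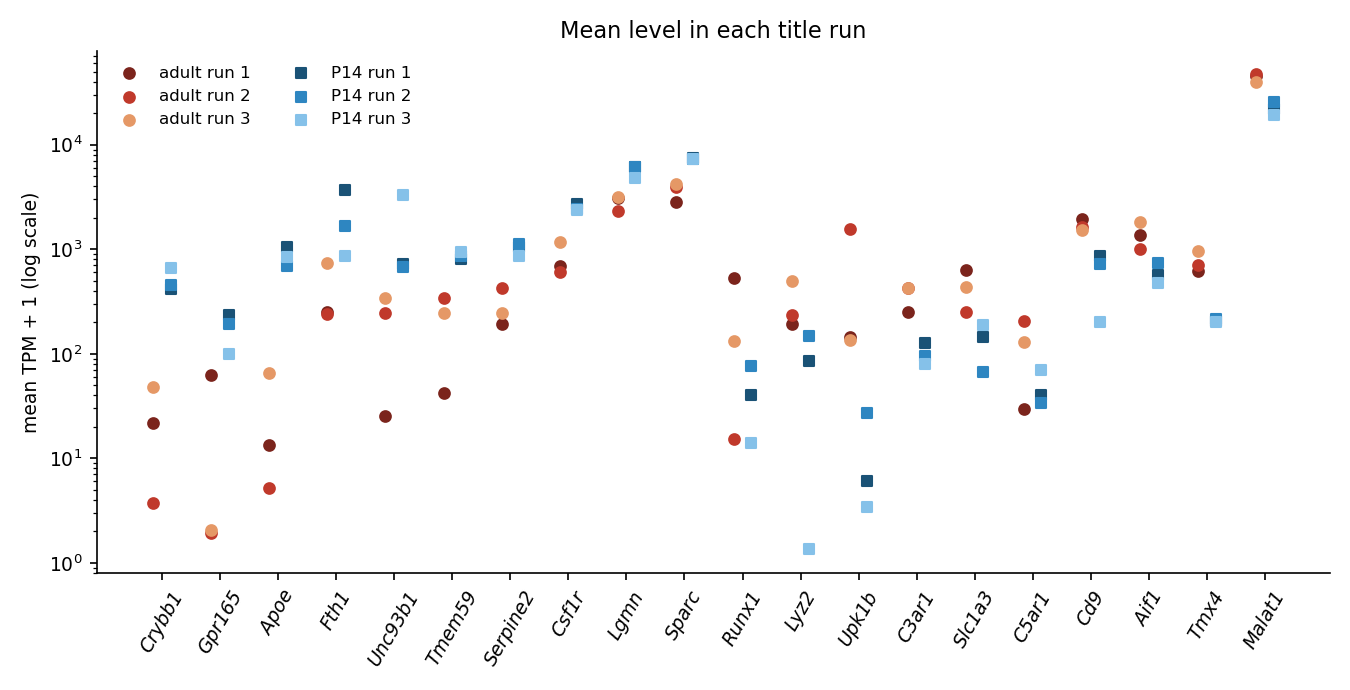
Mean TPM + 1 on a log axis in each title run for 20 genes; circles are the 3 adult runs, squares the 3 P14 runs. For Crybb1, Apoe, Csf1r, Lgmn and Sparc every adult run lies below every P14 run, and for Tmx4, Aif1, Cd9 and Malat1 every adult run lies above.

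Few markers of other cell types passed the level filter. None of the listed neutrophil, natural killer, mural or erythroid genes was measured, and Gfap, Cldn5 and Hbb-bs were at 0 in all cells. The summed level of 12 border-associated macrophage markers was 0 to 3155.2 TPM in adult and 0 to 2472.9 TPM in P14 cells; 3 were measured and Mrc1 was called lower (1.63 TPM in adult and 67.5 TPM in P14 cells, in 30.6% of adult and 30.5% of P14 cells), while Cbr2 was at 0. Mrc1 was not called in matched cells (ratio -4.69), and its ratio turned to 1.17 with all cells. F13a1 was in 14 of 49 adult cells (28.6%, 95% interval 16.6% to 43.3%), at most 11.2 TPM, and in no P14 cell, which allows a share of up to 2.86%. The 10 monocyte markers summed to 0 to 1109 TPM in adult and 0 to 1293 TPM in P14 cells; 3 were measured, Fn1 was called higher, and Ly6c1 and Plac8 were at 0. Of 8 astrocyte markers, summing to 0 to 4188 TPM in adult and 0 to 2230.3 TPM in P14 cells, 2 were measured: the glutamate transporter Slc1a3 was higher (417 TPM in adult and 126.4 TPM in P14 cells) and S100b lower (0.055 without mitochondrial genes and 0.99 with all cells), while Gfap, Aldh1l1, Gja1 and Aldoc were at 0.

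In the T cell list 1 of 2 measured genes, Cd3d, was lower, though not called in matched cells. No measured marker was called in the lists of dendritic cells (2 measured), B cells (1), oligodendrocytes (4), neurons (3), neural progenitors (1), endothelial cells (1) or ependymal cells (1). The 12 neuron markers summed to 0 to 49988 TPM in adult and 0 to 11969 TPM in P14 cells, nearly all of it Calb1, the gene used to leave cells out, which had 2670.3 TPM in adult and 1594 TPM in P14 cells in the cells kept; Syt1, Rbfox3, Slc17a7 and Slc17a6 were at 0. The 8 neural progenitor markers summed to 0 to 50091 TPM in adult and 0 to 2913.98 TPM in P14 cells, nearly all of it Pax6 (1835 TPM in adult and 292.3 TPM in P14 cells), with Sox2, Hes5 and Neurod1 at 0. The part of these markers in the results was not tested.

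The same age comparison in thalamus called 391 of 12066 genes higher (3.24%) and 6.06% lower, and in visual cortex 449 of 11856 higher (3.79%) and 1070 lower (9.02%). The difference between regions was not tested, since each is 1 sample per age. Crybb1 was lower in all 3, with ratios of -3.87 in hippocampus, -1.52 in thalamus and -2.67 in visual cortex, and so was Gpr165 (-4.21, -2.08 and -3.31). Sparc, Sall1, Serpine2 and Tmem59 were also called lower in all 3, and Lyz2, Upk1b, Runx1, C3ar1 and Tmx4 higher in all 3. Csf1r was called lower in hippocampus (-1.41) and visual cortex (-0.98) and not in thalamus (-0.16).

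Other genes differed in size or sign. Lgmn, called in hippocampus at -1.02, was at -0.40 in thalamus, not called, and called lower at -0.86 in visual cortex. Fth1 was lower in hippocampus (-2.22) but called higher in thalamus (0.70), with -0.22 in visual cortex. Aif1 was at -0.021 and -0.084 in those regions, against 1.35 in hippocampus. Of the 34 widely seen genes higher in hippocampus, 8 were called higher and 2 lower in thalamus, and 15 higher and none lower in visual cortex. Of the 79 lower ones, 15 were called lower and 3 higher in thalamus, and 30 lower and 1 higher in visual cortex. Of the 15 named lower genes 1 was called lower in thalamus and 9 in visual cortex, while 6 and 2 had ratios of the opposite sign. Of the 15 named higher genes 8 and 6 were called higher in those regions, and 5 and 4 had the opposite sign.

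**Figure D5:**
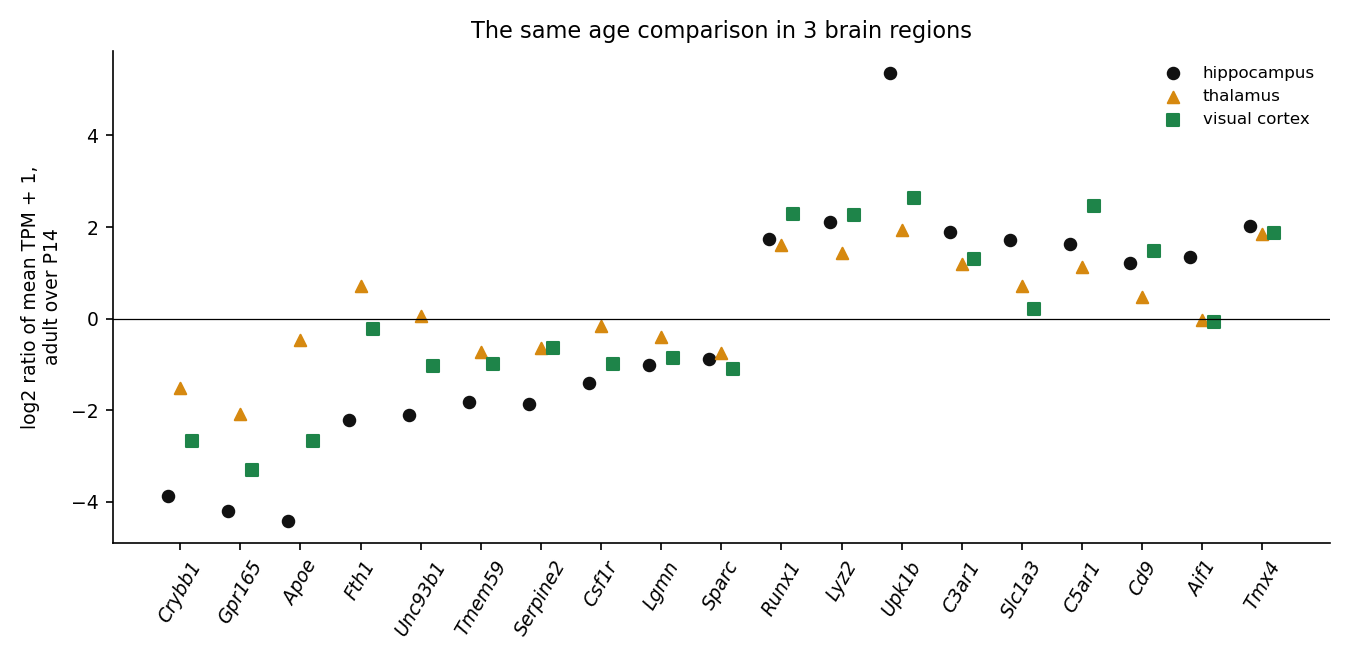
Log2 ratio of mean TPM + 1, adult over P14, for 19 genes in hippocampus, thalamus and visual cortex. Crybb1 and Gpr165 lie below 0 in all 3 regions and Fth1 lies at -2.22, 0.70 and -0.22.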

How the data were processed

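Brain macrophages were sorted, and single cells were captured with Fluidigm C1 and sequenced after Nextera XT preparation, as the labels' protocols state. The authors deposited 1 table of TPM values; RSEM 1.2.19, Seurat and GRCm38 appear in the submitters' processing notes; no aligner or annotation is named in the sources used here. TPM keeps no depth, so reads per cell are unknown; there are no molecular identifiers, and without strand information overlapping genes cannot be separated. No column belonged to another series. No doublet caller was run. Kept cells were 49 of 66 adult and 105 of 118 P14 cells in hippocampus, 91 adult and 187 P14 in thalamus, and 87 adult and 112 P14 in visual cortex.

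Means of TPM were compared as described beside the results in Python 3.11.15, with pandas 2.3.3, numpy 2.4.6, matplotlib 3.10.9 and scipy 1.17.1. The comparison was tested on simulated data drawn from P14 cells for both groups, with set folds in genes seen in most P14 cells only. It did not cover the difference in genes per cell or genes seen in few cells. Shares of cells use a level of 1 TPM with exact Clopper-Pearson 95% intervals, and a share of 0 the limit of 3 counts. Gene coordinates came from GENCODE M21 (GRCm38), in which 39374 of 43280 names (91.0%) had a single match.

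The members and gene lists were chosen with earlier results of these data known. Named genes were the 15 largest ratios in each direction with a mean of 50 TPM at the higher age, 1 TPM in 25% of its cells, called and with title runs apart, leaving out Y-linked, ribosomal protein, mitochondrial and predicted genes, Xist and pseudogenes. Up to 6 genes per list and all homeostatic, stage and transcription factor genes were added; others, such as the widely seen leaders, were chosen after their values were seen. Alternatives changed the pseudocount, the filters on genes and cells, rescaling, fold and scale, matched genes per cell, and left out each title run.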

Additional observations from a re-analysis of the deposited data

Results flagged for a closer look

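Among called named genes, 1 differed with age in opposite directions in 2 regions with title runs apart in both. It was Tsc22d3, the glucocorticoid-induced leucine zipper gene. In hippocampus it had 258.1 TPM in adult and 486 TPM in P14 cells, a log2 ratio of -0.91, with run means of 67.2, 236.5 and 313.9 TPM in adult and 322, 604.8 and 721.6 TPM in P14 cells. In thalamus it had 614 TPM in adult and 348 TPM in P14 cells, a log2 ratio of 0.82. The difference between the regions was not tested. In visual cortex the ratio was -0.28 and was not called.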

How the results depend on the processing

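No paired analysis was possible because each age is 1 sample and the cell numbers tie no adult cell to a P14 cell by animal or preparation. Counts are given as shares of the genes tested. Genes called higher, 2.97%, became 7.84% after median-ratio rescaling, 1.47% with all cells, 14.3% in cells matched in genes, 0.662% at 2-fold and 6.77% among widely seen genes, and 2.87% to 8.42% as title runs were left out, the highest without adult run 3. Matching in genes and leaving out adult run 3 also left fewer adult cells, whose means vary more. Genes called lower, 18%, became 26.7% at a mean of 50 TPM, 28.2% on mean log2 alone, 9.04% after median-ratio rescaling, 6.49% at 2-fold and 15.7% among widely seen genes, and 16.6% to 21.98% without single runs. Higher genes were 14.2% of calls, against 41.9% in matched cells, 46.4% after median-ratio rescaling, 30.1% without adult run 3 and 30.1% among widely seen genes. The all-gene median of -0.33 became 0.070 at a mean of 50 TPM, -1.01 without the 2 highest cells per gene and 0.053 among widely seen genes, and -0.72 to -0.24 without single runs. The 2 highest cells are a larger share of the adult cells than of the more numerous P14 cells. Leaving them out therefore tends to lower ratios by design, and no age difference is read from -1.01. Of 1876 values of called named genes under these settings 1737 moved by less than the spread between title runs and 12 changed sign. Settings that change only the filter on mean level leave each gene's ratio as it was, so their values count as unmoved by design. Median-ratio rescaling shifts every ratio by the same amount. The count of unmoved values therefore overstates how stable the ratios were. In matched cells Abcd2 (-2.12), H2-Q4 (-1.17), Nrros (0.062), Tgif1 (1.14) and mt-Atp6 (-0.39) changed sign. Without mitochondrial genes Bhlhe41 (0.095) and S100b (0.055) did, and with all cells S100b (0.99) and Mrc1 (1.17). Without single title runs H2-Q4 ranged from -1.07 (without adult run 3) to 2.47, Tgif1 from -1.57 to 0.21 (without adult run 3), and Rel from -2.47 to 0.19 (without P14 run 1). The list median of border-associated macrophage markers turned to 0.15 with no filter, 0.34 without the 2 highest cells, 3.41 with all cells and 0.54 among widely seen genes, and that of mitochondrially encoded genes to -0.11 in matched cells. On mean log2 the medians of 10 lists turned negative: mitochondrially encoded (-0.37), microglial stage, disease-associated, cytokine, glucocorticoid, interferon, complement, pattern receptor, transcription factor and Csf1 receptor genes. The causes were not tested. Depth is unknown, so a gene at 0 in a cell may have been missed.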

Other observations

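RP24-458F14.4, an unannotated transcript, was at 9789.7 TPM in adult and 367 TPM in P14 cells; adult run means were 276.7, 447 and 16274 TPM, so the level came from run 3. In thalamus its log2 ratio was -1.66 and in visual cortex 1.89. Pf4, a chemokine gene of border-associated macrophages, was in 26.5% of adult and 0.952% of P14 cells, and 1 P14 cell at 824.9 TPM held its whole P14 total. Across cells, as a description, summed immediate early and summed cytokine genes had a Spearman rho of 0.0804 in 49 adult cells and 0.595 in the P14 cells. The other pairs of lists examined also had a higher rho in P14 cells. Immediate early with heat shock genes had 0.188 in adult and 0.505 in P14 cells. Homeostatic with disease-associated genes had 0.371 in adult and 0.439 in P14 cells, and homeostatic with lysosome genes 0.240 in adult and 0.468 in P14 cells. Cells are not replicates, no preparation is named for them, and reads per cell are unknown.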
